A study of Mus musculus with 16 samples.

Results

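Polyamine metabolism genes were examined as 10 genes chosen by name, *Odc1*, *Azin1*, *Oaz1*, *Oaz2*, *Amd1*, *Amd2*, *Srm*, *Sms*, *Smox* and *Sat1*, out of 24421 genes in the deposited count tables, and all 10 had a row in both tables. The libraries were made from polyadenylated RNA of 2 mouse muscles, the gastrocnemius (Gas), made mostly of fast fibers, and the soleus (Sol), rich in slow fibers. WT mice were compared with LSD1-mKO mice, in which the *Lsd1* gene (listed as *Kdm1a*), coding for a histone demethylase, is floxed on both alleles and is deleted by a tamoxifen-activated Cre recombinase, ACTA1-CreERT2. The promoter of this transgene is active in differentiating and differentiated muscle fibers, so the other cells of the muscle keep *Lsd1*, and the WT mice carried the floxed gene without the transgene. Each mouse of either genotype was a C57BL/6 male of 8 weeks, injected with tamoxifen (75 mg/kg, 5 daily doses) and, starting on the fourth day of tamoxifen, with dexamethasone (Dex, 1 mg/kg, 7 daily doses), a synthetic glucocorticoid. No muscle without Dex entered the comparisons. Of the 16 libraries, 3 were WT Gas, 5 LSD1-mKO Gas, 3 WT Sol and 5 LSD1-mKO Sol. The study describes its Sol replicates as mice, 3 of each genotype, although 5 LSD1-mKO Sol libraries were used here. The labels number the libraries without naming a mouse, so the p-values measure the spread between these libraries.

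Polyamines are small positively charged molecules that bind nucleic acids and are needed for translation and cell growth. ODC1 makes putrescine from ornithine, AMD1 decarboxylates S-adenosylmethionine to supply the aminopropyl group, SRM joins such a group to putrescine to give spermidine, and SMS adds another to give spermine. SMOX oxidizes spermine back to spermidine, and SAT1 acetylates spermidine and spermine for export or breakdown. The antizymes OAZ1 and OAZ2 bind ODC1 and hand it to the proteasome, and AZIN1, a relative of ODC1 without its activity, binds antizymes in its place. In skeletal muscle, *Smox* is known as a gene that responds to atrophy.

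Before the levels, the sequences show which members a short read can identify. *Amd1* (chr10:40287458-40302186, minus strand, GRCm38, 8 merged exons) and *Amd2* (chr10:35708675-35711892, minus strand, 1 exon) code for forms of the same enzyme. Their coding sequences of 1002 bases differed at 1 base, G796C, where the base of *Amd1* comes first and positions count from 1 at the A of the start codon, and this base changes 1 residue of the protein. The stretch of 75 bases around it, the length of the reads, is shown with that base in capitals, since any 75-base coding read that misses it is the same for both genes.
Amd1: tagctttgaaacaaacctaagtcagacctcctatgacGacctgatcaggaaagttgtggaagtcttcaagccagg
Amd2: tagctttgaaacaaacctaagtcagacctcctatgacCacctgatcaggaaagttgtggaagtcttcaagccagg

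Of the 3130 windows of 75 bases in the longest coding transcript of *Amd1*, 82.0% also occurred in a transcript of another gene, 2490 of them in *Amd2*, and 565 did not. In *Amd2* 79.2% of the windows were shared. Neither gene had a read in any of the 16 libraries, which allows up to 3 reads per library, or 0.122 to 0.296 CPM (the count of a gene relative to the summed counts of its library, on a fixed scale). These limits use unscaled library totals and cover counting error only. The counting left out reads that map to several places. No read was counted for *Amd1*, although 565 of its windows were in no annotated transcript of another gene. Copies elsewhere in the genome were not searched, and the reason for the 0 reads was not tested. The aminopropyl supply is therefore not measured here.

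The antizymes are made through a shift of the reading frame at a conserved stop codon, and this site is shown for both because it is the feature that defines antizymes. Capitals mark the last codon of the first frame and the stop codon, and the windows of 30 bases differed at 2 bases.
Oaz1: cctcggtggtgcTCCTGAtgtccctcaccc
Oaz2: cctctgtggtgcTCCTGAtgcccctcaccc

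Despite this likeness the antizymes were counted very differently. *Oaz1* (chr10:80826656-80829290, plus strand, GRCm38) had 1 to 25 reads per library and 113 in all, and 45.9% of its 75-base windows were shared, all with the processed copy *Oaz1-ps*, which had 0 reads. Exons of *Oaz1* also overlapped *Mir1982*, another counted gene on the same strand, and reads of several genes were left out of the counting. The part of this overlap in the low count was not tested. *Oaz2* (chr9:65668001-65690300, plus strand) had 32638 reads in all and shared 6.10% of its windows. *Odc1* shared 30.5% of its windows with copies elsewhere and *Sms* 28.2%, yet they held 56996 and 13204 reads, so a shared sequence did not go with missing reads in every member. *Smox* and *Srm* shared none of their windows, *Sat1* 2.67% and *Azin1* 5.94%, the latter with *Gm49077* on the opposite strand. As the counting names no strand, reads of *Azin1* and *Gm49077* cannot be told apart there. A level of *Oaz1* cannot be read as expression of the gene.

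**Figure D1:**
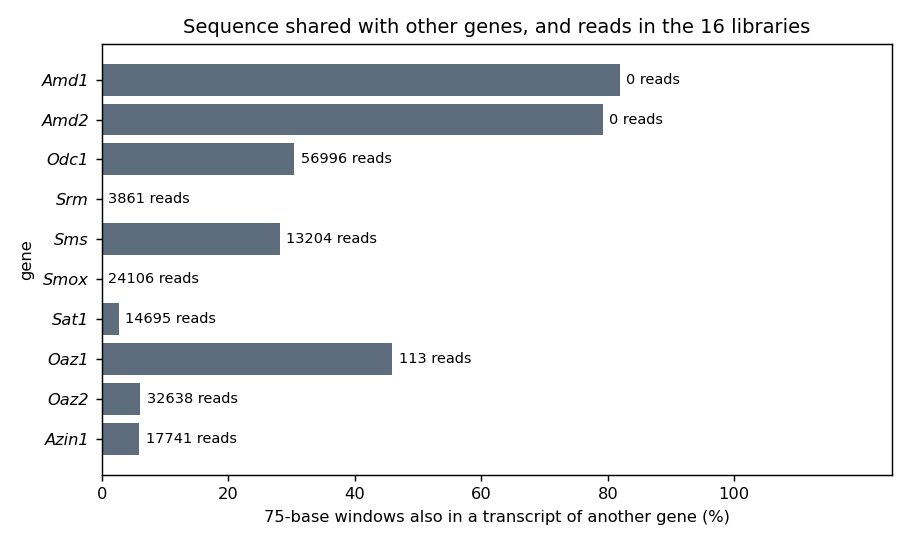
Percentage of the 75-base windows of each member's longest coding transcript that also occurred in a transcript of another gene (bars, x axis), with the member's reads summed over the 16 libraries printed beside each bar. *Amd1* (82.0%) and *Amd2* (79.2%) had 0 reads and *Oaz1* (45.9%) had 113, whereas *Odc1* (30.5%) had 56996.

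*Odc1* and *Smox*, the members that varied most, are also shown by the bases ahead of their RefSeq start sites (GRCm38.p6, plus strand), limited to the stretch outside the exons of the annotation. Capitals mark GGGCGG on either strand, the core of the GC box bound by SP1-type factors.
Odc1 chr12:17544623-17544793: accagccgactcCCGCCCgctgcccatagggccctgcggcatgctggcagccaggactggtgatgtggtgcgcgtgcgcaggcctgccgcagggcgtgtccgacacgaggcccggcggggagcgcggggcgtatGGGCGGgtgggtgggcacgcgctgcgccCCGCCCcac
Smox chr2:131491654-131491763: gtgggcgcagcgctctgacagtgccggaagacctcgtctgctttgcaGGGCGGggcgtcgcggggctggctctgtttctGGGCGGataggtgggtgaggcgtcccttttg

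In the full 250 bases before the start site, GGGCGG occurred 4 times for *Odc1* and 6 times for *Smox*, and 32.7% of 32851 promoters held it. CACGTG, the E-box bound by MYC, was in neither of these windows and in 6.02% of all promoters. GTAAACA, bound by FOXO factors, was in neither and in 3.17% of all. Of the 8 members with a promoter in the table, *Sms* held CACGTG. These are matches of letters only, and bases after the start site were not searched. The study's own qRT-PCR primers for *Smox*, a gene that it selected on these libraries, lay on 4 of its 11 protein-coding transcripts and on no other gene, and spanned 91 bases from end to end.
Smox forward primer: CAGTTCACAGGGAACCCCAAT
Smox reverse primer: AGGAATAGGAACCCCGGAAGTA

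The libraries held 10130415 to 24576377 reads assigned to genes. *Kdm1a* checked the labels: it had 37.2 to 48.2 CPM in the WT Gas libraries and 12.0 to 17.7 in the LSD1-mKO Gas libraries, and 33.4 to 34.9 against 9.13 to 12.9 in Sol. LSD1-mKO differed from WT by -1.56 on the log2 scale in Gas (adjusted p 0.0177 by edgeR's quasi-likelihood test) and -1.66 in Sol (adjusted p 0.000574). The Gas call was lost without any one of WT Gas 1, WT Gas 2 and LSD1-mKO Gas 1, 2, 4 or 5 (adjusted p 0.0549 to 0.134). All 10 muscle fiber markers were detected in every group. Their summed level was 157539 to 183554 CPM in WT Gas, 107081 to 156373 in LSD1-mKO Gas and 70854 to 113273 in Sol, and in bulk muscle fewer cells of a type and less RNA per cell cannot be told apart. The ribosomal protein genes stood high for their muscle in WT Gas 3 and LSD1-mKO Gas 5, at 8.77 and 8.13 log2 CPM on average against 7.32 to 7.70 in the other Gas libraries, and in WT Sol 2, at 7.49 against 6.66 to 7.05 in the other Sol libraries. Gas and Sol libraries carry different codes in the labels, which name no set or batch. If the muscles were handled separately, muscle and handling cannot be told apart.

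*Odc1*, the rate-limiting enzyme that makes putrescine (chr12:17544794-17551505, plus strand), was the member with the highest level per length in Gas. It had 400, 487 and 398 CPM in the WT Gas libraries, and 136, 200, 227, 329 and 383 CPM in the LSD1-mKO Gas libraries. All 5 LSD1-mKO libraries lay below all 3 WT libraries, LSD1-mKO Gas 5 only narrowly. The summed muscle fiber markers were also lower in every LSD1-mKO than in every WT Gas library. Within LSD1-mKO Gas they were highest in LSD1-mKO Gas 5. The 4 fibroblast markers were lower in LSD1-mKO Gas too (766 to 904 against 1091 to 1655 CPM). LSD1-mKO Gas 1, the lowest in *Odc1*, had 473 CPM of 4 Schwann cell markers, against 99.7 to 208 in WT Gas. The part of these markers in *Odc1* was not tested. In Sol the order of *Odc1* was turned around: the WT libraries had 84.2, 69.1 and 74.6 CPM and the LSD1-mKO libraries 186, 133, 79.9, 113 and 121 CPM. Here 4 of the 5 LSD1-mKO libraries lay above every WT library, and LSD1-mKO Sol 3 overlapped with them. LSD1-mKO Sol 1, the highest in *Odc1*, also had the highest sum of 4 fibroblast markers in Sol (1567 CPM, against 757 to 1127 in WT Sol). The same held for 8 macrophage and neutrophil markers (185 CPM, against 92.6 to 120 in WT Sol). Its endothelial and adipocyte sums were not the highest of its group. The part of these markers in the level of *Odc1* in Sol was not tested.

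In Gas *Odc1* averaged 428 ± 51.1 CPM over 3 WT and 255 ± 99.5 CPM over 5 LSD1-mKO libraries (mean ± SD), and LSD1-mKO differed from WT by -0.75 on the log2 scale (SE 0.305). This difference did not pass the test (p 0.0336, adjusted p 0.534 by edgeR's quasi-likelihood test). In Sol it averaged 76.0 ± 7.61 CPM over 3 WT and 127 ± 38.6 CPM over 5 LSD1-mKO libraries, and the difference of 0.72 on the log2 scale (SE 0.227) did not pass it either (p 0.00840, adjusted p 0.158 by edgeR's quasi-likelihood test). With a library left out, the Sol difference ranged from 0.56 to 0.85 (adjusted p 0.0933 to 0.333 by the same test). The test of the difference between the muscles, as an interaction of genotype and muscle, gave 1.48 on the log2 scale (SE 0.408, p 0.00202, adjusted p 0.646 by edgeR's quasi-likelihood test). From Gas to Sol *Odc1* changed by -2.50 on the log2 scale in WT (SE 0.338, adjusted p 9.69e-05 by edgeR's quasi-likelihood test), and -1.01 in LSD1-mKO (SE 0.251, adjusted p 0.00726). In LSD1-mKO the muscles overlapped, since LSD1-mKO Gas 1 (136 CPM) lay below LSD1-mKO Sol 1 (186 CPM).

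*Azin1*, the antizyme inhibitor that protects ODC1 (chr15:38487427-38519266, minus strand), was higher in Sol than in Gas. It had 27.8, 39.0 and 39.6 CPM in WT Gas and 32.5 to 51.2 CPM in LSD1-mKO Gas. In WT Sol the libraries had 116, 40.2 and 62.2 CPM, and in LSD1-mKO Sol 117, 105, 65.4, 65.8 and 58.6 CPM. The Sol libraries were thus spread over a wide range in both genotypes, with WT Sol 1 far above the other WT libraries. The log2 fold change from Gas to Sol was 1.14 in LSD1-mKO (SE 0.263, adjusted p 0.00442 by edgeR's quasi-likelihood test) and 1.04 in WT (SE 0.339, adjusted p 0.0442). The WT call rested on single libraries: without WT Sol 1 the log2 fold change was 0.54 (adjusted p 0.342), and the call was lost in 10 of the 16 fits that left out a library, namely WT Gas 1, 2 or 3, LSD1-mKO Gas 1 or 4, WT Sol 1 or 3, and LSD1-mKO Sol 2, 3 or 4. It was also lost with a covariate for the ribosomal protein level (0.69, adjusted p 0.374), with a replicate block (0.91, adjusted p 0.0815) and with only the WT libraries in the fit (1.03, adjusted p 0.147). WT Sol 1 also had the highest summed level of the 4 endothelial markers, 512 CPM, against 369 to 447 in the other WT Sol libraries. In LSD1-mKO Sol the highest sum was that of LSD1-mKO Sol 3, at 480 CPM, which had 65.4 CPM of *Azin1*, below LSD1-mKO Sol 1 and 2. The part of these markers in the level of *Azin1* was not tested. Between genotypes *Azin1* differed by 0.08 in Gas (SE 0.214) and 0.18 in Sol (SE 0.325) on the log2 scale.

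*Oaz2*, an antizyme that promotes ODC1 degradation, was the steadiest member, with an SD of 0.807 to 10.8% of the mean in the 4 groups, the smallest of the members with reads in each. It had 93.3, 90.6 and 76.1 CPM in WT Gas and 81.8 to 97.0 CPM in LSD1-mKO Gas, so the genotypes overlapped. In WT Sol its 3 libraries had 133, 131 and 131 CPM, and LSD1-mKO Sol had 110 to 147 CPM, all above every Gas library. The log2 fold change from Gas to Sol was 0.60 in WT (SE 0.149, adjusted p 0.0108 by edgeR's quasi-likelihood test) and 0.60 in LSD1-mKO (SE 0.115, adjusted p 0.00115). With only the WT libraries in the fit the WT difference was 0.59 and was not called (adjusted p 0.106). The genotypes differed by 0.04 in Gas (SE 0.158) and 0.02 in Sol (SE 0.130) on the log2 scale, the smallest genotype difference of the 7 members tested in Gas.

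The ratio of *Odc1* reads to *Oaz2* reads within a library does not depend on the scaling of library sizes, and was computed after the levels had been seen, as a description. It was 4.29, 5.38 and 5.22 in the WT Gas libraries and 1.50, 2.28, 2.78, 3.70 and 3.95 in the LSD1-mKO Gas libraries. In Sol it was 0.634, 0.527 and 0.571 in WT and 1.69, 0.967, 0.589, 0.786 and 0.819 in LSD1-mKO. Reads of *Odc1* thus outnumbered those of *Oaz2* in every Gas library and, in Sol, in 1 library, LSD1-mKO Sol 1. The other antizyme among the members, *Oaz1*, had too few reads to be included. The ratio is not corrected for gene length or shared sequence, so it does not say which transcript was more abundant. The LSD1-mKO libraries lay below WT in Gas with no overlap, whereas in Sol LSD1-mKO Sol 3 lay inside the WT range.

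**Figure D2:**
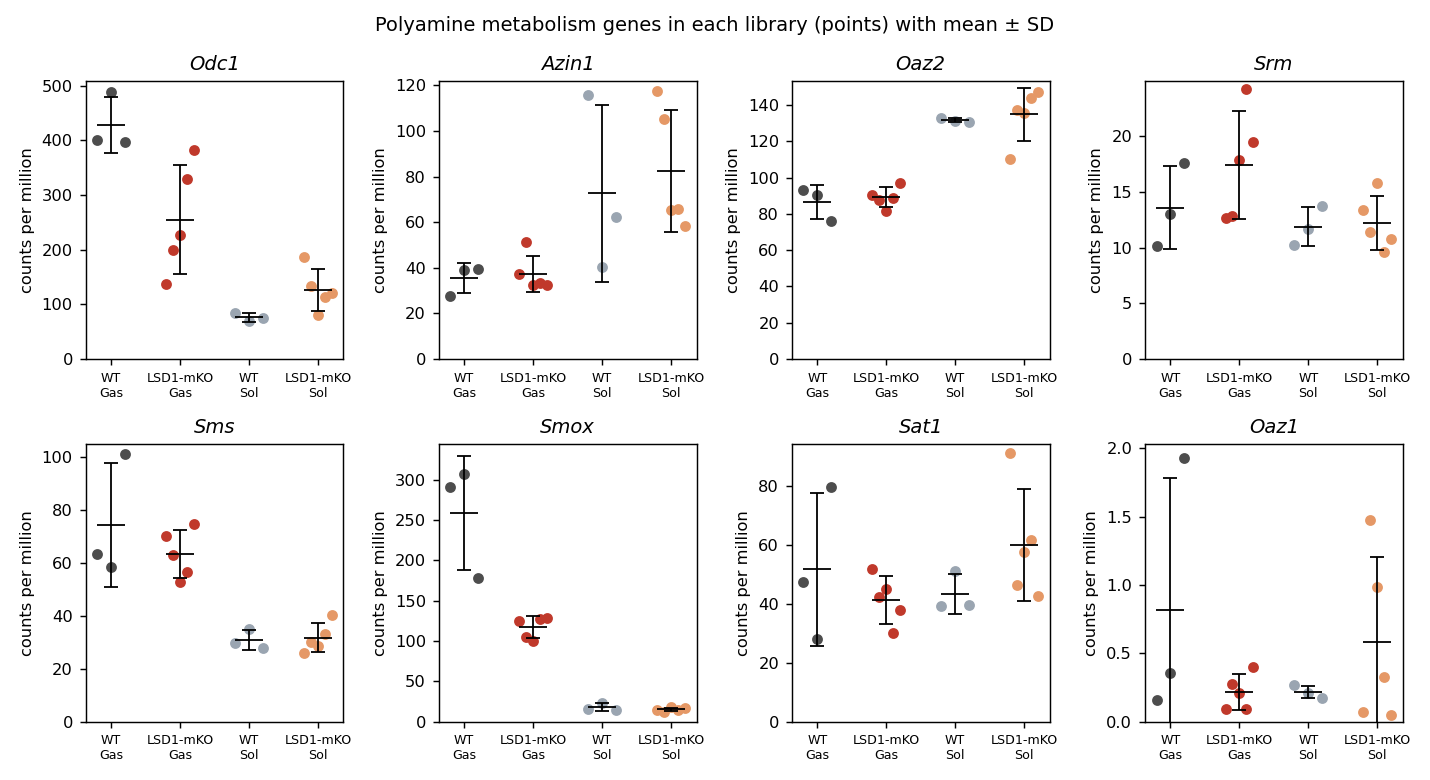
CPM of each member with reads (y axis, linear, from 0) in the 4 groups (x axis), with 1 point per library and bars for the mean ± SD of 3 WT or 5 LSD1-mKO libraries. *Odc1* and *Smox* were high in Gas and low in Sol, *Oaz2* and *Azin1* lay higher in Sol, and *Oaz1* stayed at or below 1.93 CPM.

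The synthases that extend putrescine came next. *Srm*, spermidine synthase (chr4:148591503-148594993, plus strand), had 10.2, 13.0 and 17.6 CPM in WT Gas and 12.6 to 24.2 CPM in LSD1-mKO Gas, with 10.3 to 13.7 CPM in WT Sol and 9.61 to 15.8 CPM in LSD1-mKO Sol. All 4 groups overlapped. The log2 fold change of LSD1-mKO against WT was 0.37 in Gas (SE 0.266) and 0.03 in Sol (SE 0.187). From Gas to Sol it was -0.51 in LSD1-mKO (SE 0.203, adjusted p 0.0771 by edgeR's quasi-likelihood test, but 0.0488 by DESeq2, and 0.0366 to 0.0493 without WT Gas 3, LSD1-mKO Gas 1, LSD1-mKO Gas 2 or LSD1-mKO Sol 3) and -0.18 in WT (SE 0.265, adjusted p 0.673).

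*Sms*, spermine synthase (chrX:157443855-157492287, minus strand), had 63.3, 58.3 and 101 CPM in WT Gas and 52.9 to 74.7 CPM in LSD1-mKO Gas. In Sol it had 28.0 to 35.1 CPM in WT and 26.1 to 40.4 CPM in LSD1-mKO, below every Gas library. The high WT value was that of WT Gas 3, the library with the highest ribosomal protein level. *Sms* fell from Gas to Sol by 1.26 on the log2 scale in WT (SE 0.220, adjusted p 0.000865 by edgeR's quasi-likelihood test) and by 1.00 in LSD1-mKO (SE 0.169, adjusted p 0.000360). With a covariate for the ribosomal protein level these log2 fold changes were -0.71 and -0.70 and kept their calls. Between genotypes the log2 fold change was -0.22 in Gas (SE 0.217), which turned to 0.07 without WT Gas 3, and 0.02 in Sol (SE 0.158).

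*Smox*, spermine oxidase (chr2:131491496-131525922, plus strand), showed the widest fold range of all members with reads, apart from the near-empty *Oaz1*. The WT Gas libraries had 291, 307 and 178 CPM and the LSD1-mKO Gas libraries 124, 105, 99.5, 127 and 129 CPM. Every LSD1-mKO library lay below every WT library, although WT Gas 3, at 178 CPM, stood closer to them than to the other WT libraries. In Sol the WT libraries had 15.2, 23.6 and 15.0 CPM and the LSD1-mKO libraries 14.6, 12.7, 18.0, 14.6 and 17.1 CPM, and the genotypes overlapped.

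In Gas *Smox* averaged 259 ± 70.2 CPM over 3 WT and 117 ± 13.7 CPM over 5 LSD1-mKO libraries (mean ± SD), a difference of -1.14 on the log2 scale (SE 0.214). It had the smallest p of the members in this muscle (p 0.000292), but over the 13040 genes tested the adjusted p 0.180 by edgeR's quasi-likelihood test, so it was not called. It was called by DESeq2 (-1.15, adjusted p 0.000337), by edgeR's exact test (-1.14, adjusted p 0.00189), in the quasi-likelihood fit of all 16 libraries (-1.14, adjusted p 0.0221), without WT Gas 3 (-1.35, adjusted p 0.0235) and without WT Gas 3 and LSD1-mKO Gas 5, the Gas libraries of high ribosomal protein level (-1.38, adjusted p 0.0397). Over all alternatives the log2 fold change ranged from -1.38 to -0.98 and the adjusted p from 0.000337 to 0.528. The summed muscle fiber markers also lay higher in every WT Gas library than in every LSD1-mKO Gas library, as given above. So did the 4 fibroblast markers (1091 to 1655 against 766 to 904 CPM), which were highest in WT Gas 3, the WT Gas library with the lowest *Smox*. The part of these markers in the difference of *Smox* was not tested.

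In Sol *Smox* averaged 17.9 ± 4.90 CPM over 3 WT and 15.4 ± 2.14 CPM over 5 LSD1-mKO libraries, a difference of -0.23 on the log2 scale (SE 0.188, adjusted p 0.603 by edgeR's quasi-likelihood test), which became 0.02 without WT Sol 2. The difference between the muscles in the response to genotype was 0.93 on the log2 scale (SE 0.285, p 0.00471, adjusted p 0.735 by edgeR's quasi-likelihood test). Between muscles *Smox* had the largest difference of the members: the log2 fold change from Gas to Sol was -3.85 in WT (SE 0.250, adjusted p 6.59e-08 by edgeR's quasi-likelihood test) and -2.93 in LSD1-mKO (SE 0.186, adjusted p 2.70e-08), and it was called in all 24 alternative fits of each genotype.

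*Sat1*, the acetyltransferase that starts polyamine breakdown (chrX:155213132-155216449, minus strand), had 47.5, 28.2 and 79.7 CPM in WT Gas and 30.2 to 51.8 CPM in LSD1-mKO Gas. In Sol it had 39.3, 51.2 and 39.6 CPM in WT and 91.2, 46.6, 57.8, 61.7 and 42.7 CPM in LSD1-mKO. The genotypes overlapped in both muscles, and WT Gas 3 was again the highest of its group. The log2 fold change of LSD1-mKO against WT was 0.46 in Sol (SE 0.235, adjusted p 0.387 by edgeR's quasi-likelihood test) and -0.31 in Gas (SE 0.301, adjusted p 0.698), the latter turning to 0.14 without WT Gas 3. From Gas to Sol it was 0.53 in LSD1-mKO (SE 0.249, adjusted p 0.127), with 0.88 and a call under the ribosomal protein covariate (adjusted p 0.0162), and -0.25 in WT (SE 0.322, adjusted p 0.628).

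Over the members, LSD1-mKO against WT gave no call in either muscle. In Gas 7 of the 10 members had enough reads to be tested and 0 were called by edgeR's quasi-likelihood test, in a comparison in which 0.0307% of all genes tested were called. At an unadjusted p under 0.05 there were 2 members, *Odc1* and *Smox*, against 9.06% of all genes, and the same 2 had no overlap between the genotypes, both lower in LSD1-mKO, against 2.81% of all genes in that direction. DESeq2 and edgeR's exact test each called 1 member, *Smox*, where they called 1.01% and 0.79% of all genes, as did the fit of all 16 libraries, which called 0.451%. The median log2 fold change of the 7 members was -0.22, and that of all genes tested was 0.01. In Sol 7 were tested and 0 called, where 0.967% of all genes were called (129 genes, and 11 to 228 with a library left out, the fewest without WT Sol 3). At an unadjusted p under 0.05 there was 1, *Odc1*, against 15.5% of all genes, and DESeq2 and the exact test called 0 members, where they called 4.53% and 4.18% of all genes. The median log2 fold change was 0.03, against -0.01 over all genes.

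For the interaction, 7 members were tested beside *Oaz1* and 0 were called, as for all genes (0.0%). Of these 7, 2 had an unadjusted p under 0.05, *Odc1* and *Smox*, against 4.88% of all genes. DESeq2 called 0 members and 0.153% of all genes. *Oaz1* passed the filter on low counts only through the libraries where it was highest, with 17 reads in WT Gas 3 and 25 and 23 in LSD1-mKO Sol 2 and 3 against 1 to 8 in the others, so it was left out of these counts.

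Between the muscles most members differed. Of the 7 members tested in WT beside *Oaz1*, 5 were called, against 17.0% of all genes: *Smox*, *Odc1* and *Sms* were lower in Sol (8.25% of all genes were called lower) and *Oaz2* and *Azin1* higher (8.75%). The same 5 were called in LSD1-mKO, in the same directions, against 24.5% of all genes. With only the WT libraries in the fit, 3 members were called in WT (*Smox*, *Odc1* and *Sms*), against 7.81% of all genes, and DESeq2 called 6 members in LSD1-mKO, *Srm* being the further one, against 29.0% of all genes. The comparisons of genotype and of muscle share groups of libraries, so their values are given side by side and were not set against each other.

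**Figure D3:**
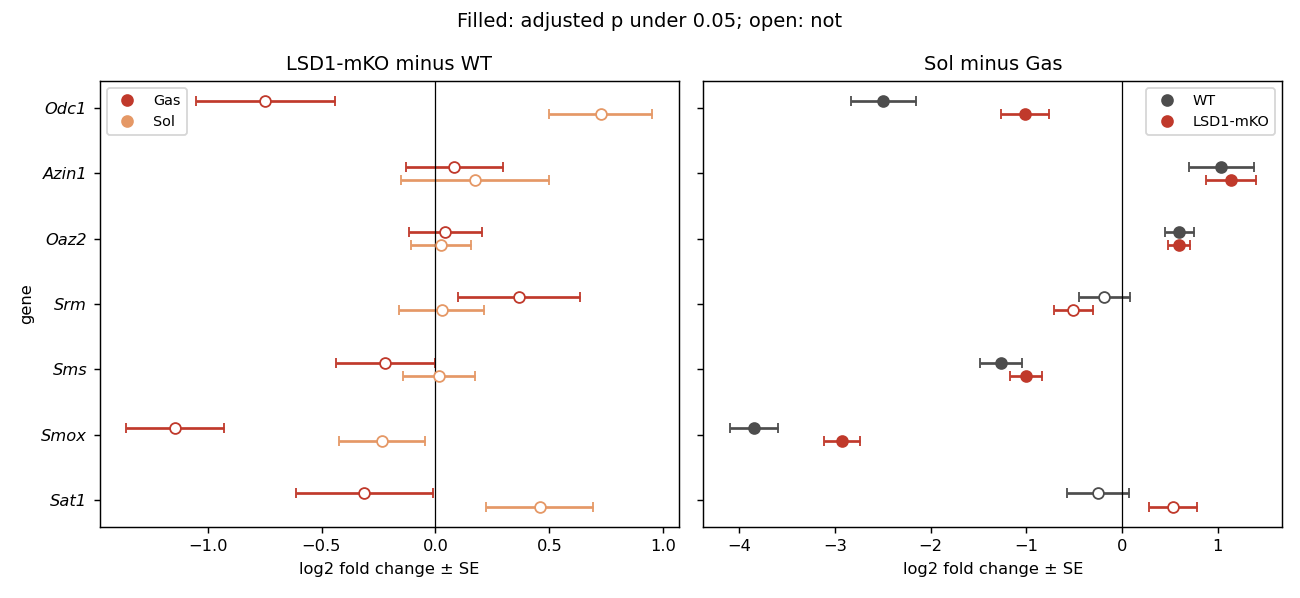
log2 fold change ± SE (x axis) of the 7 members tested in every comparison (y axis), for LSD1-mKO against WT in Gas and Sol on the left and for Sol against Gas in WT and LSD1-mKO on the right. Filled points had an edgeR quasi-likelihood adjusted p under 0.05, and all points on the left are open, with *Odc1* at -0.75 in Gas and 0.72 in Sol.

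Levels of different genes were compared as RPKM (CPM divided by the kilobases of merged exons). Reads of several places were not counted, yet the whole length was the divisor. *Odc1* and *Sms*, with 30.5% and 28.2% of their windows shared, may therefore be understated beside *Smox* and *Srm*, which shared none. *Amd1*, *Amd2* and *Oaz1* could not be placed in the order. In WT Gas *Odc1* stood highest, at 126 ± 15.0 RPKM (SD, n = 3), followed by *Smox* at 66.4 ± 18.0 and *Oaz2* at 29.0 ± 3.08, and these 3 did not overlap. *Sat1* (18.7 ± 9.39), *Sms* (12.4 ± 3.90) and *Srm* (8.49 ± 2.34) followed with overlapping libraries, and *Azin1* was lowest at 5.67 ± 1.06 RPKM. In LSD1-mKO Gas *Odc1* remained highest (74.9 ± 29.2 RPKM, SD, n = 5), while *Smox* (30.0 ± 3.51) and *Oaz2* (29.8 ± 1.83) could not be separated.

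In Sol the order changed. *Oaz2* was highest in WT Sol, at 44.0 ± 0.355 RPKM (SD, n = 3), with *Odc1* at 22.3 ± 2.24 and *Sat1* at 15.6 ± 2.44 below it and without overlap, although with the longest transcript as the length *Odc1* (31.3 to 38.1) and *Sat1* (29.1 to 37.9) overlapped. *Smox* was the lowest of the 7, at 4.61 ± 1.26 RPKM, close to *Sms* at 5.15 ± 0.617. In LSD1-mKO Sol *Oaz2* (45.1 ± 4.88 RPKM, SD, n = 5) and *Odc1* (37.2 ± 11.3) overlapped, and *Smox* was again lowest at 3.95 ± 0.550 RPKM.

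**Figure D4:**
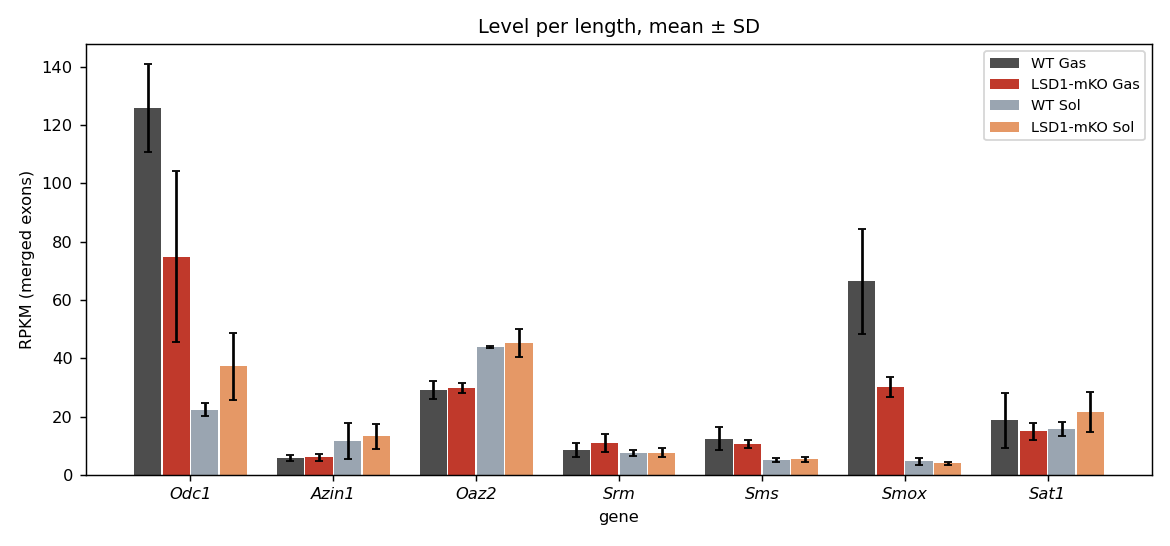
RPKM over merged exons (y axis, linear, from 0) of the 7 members with more than a few reads (x axis), as mean ± SD of 3 WT or 5 LSD1-mKO libraries. *Odc1* is tallest in Gas, at 126 RPKM in WT and 74.9 in LSD1-mKO, and *Oaz2* in Sol, at 44.0 and 45.1.

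The genes with the profiles most like those of *Odc1* and *Smox* over the 16 libraries were sought among 10767 genes by the root mean square difference of log2 CPM after centering each gene. For *Odc1* these were *Ttll7* (0.303), *Stim2* (0.364) and *Tigar* (0.399), against 0.932 for the spread of *Odc1* itself and 0.610 for *Sms*, the nearest member. *Ttll7*, for example, had 676 ± 165 CPM in WT Gas (SD, n = 3), 353 ± 144 in LSD1-mKO Gas (n = 5), 100 ± 23.1 in WT Sol and 142 ± 7.64 in LSD1-mKO Sol. For *Smox* they were *Fbp2* (0.448), coding for the muscle form of fructose bisphosphatase, *9530091C08Rik* (0.460) and *Phkg1* (0.488), coding for the muscle catalytic subunit of phosphorylase kinase, against a spread of 1.68 for *Smox* and 1.01 for *Odc1*, the nearest member. No such search was possible for *Amd1*.

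Around the members, a wider list of 23 genes of precursor supply, polyamine interconversion, transport and the hypusine route was followed, of which 17 had enough reads to be tested. In Gas 0 of the 17 were called between genotypes by edgeR's quasi-likelihood test or its exact test, and 3 had an unadjusted p under 0.05, where 9.06% of all genes had one. DESeq2, which called 1.01% of all genes, called 1, *Ahcy*, which hydrolyzes S-adenosylhomocysteine (0.68 on the log2 scale, DESeq2 adjusted p 0.0362). In Sol 1 was called, where 0.967% of all genes were. This was *Oat*, the mitochondrial ornithine aminotransferase that links ornithine to glutamate and proline. *Oat* had 201, 245 and 218 CPM in WT Sol and 106, 111, 120, 139 and 157 CPM in LSD1-mKO Sol, with no overlap, so that LSD1-mKO differed from WT by -0.82 on the log2 scale (SE 0.156, adjusted p 0.0359 by edgeR's quasi-likelihood test). DESeq2 (-0.82, adjusted p 0.000203) and edgeR's exact test (-0.82, adjusted p 0.000666) also called *Oat*, where they called 4.53% and 4.18% of all genes. The quasi-likelihood call was lost without any one of the 3 WT Sol libraries and LSD1-mKO Sol 1, 2 or 3 (adjusted p 0.0674 to 0.143). The log2 fold changes ranged from -0.91 to -0.73 over the 8 fits that left out a library. The call was also lost in the fit of all 16 libraries (-0.81, adjusted p 0.0515). In Gas *Oat* had 287, 266 and 370 CPM in WT and 179, 167, 180, 206 and 273 CPM in LSD1-mKO, where LSD1-mKO Gas 5 overlapped, and the log2 fold change was -0.61 (SE 0.212, adjusted p 0.471 by edgeR's quasi-likelihood test).

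Between the muscles, *Mtap*, which recycles the methylthioadenosine released by both synthases, was lower in Sol in WT (14.9 ± 2.79 CPM in Gas and 4.79 ± 0.480 in Sol, SD, n = 3, log2 fold change -1.65, adjusted p 3.56e-05 by edgeR's quasi-likelihood test) and in LSD1-mKO (-1.60, adjusted p 1.49e-06). *Slc7a1*, a transporter of arginine and ornithine, was higher in Sol in WT (5.06 ± 0.730 CPM in Gas and 12.1 ± 3.12 in Sol, SD, n = 3, log2 fold change 1.27, adjusted p 0.00813) and in LSD1-mKO (1.39, adjusted p 0.000311), and the WT call was lost with the ribosomal protein covariate (0.97, adjusted p 0.122). *Azin2*, a further antizyme inhibitor, was called lower in Sol in WT (-0.82, adjusted p 0.0277). That call was lost in 7 of 24 alternatives (adjusted p up to 0.190), among them the ribosomal protein covariate, the replicate block (0.0715), no filter on low counts (0.0597), only the WT libraries in the fit (0.129), and leaving out WT Gas 1, WT Sol 1 or WT Sol 3 (0.111 to 0.131). In LSD1-mKO *Ahcy* (-1.06), *Atp13a2* (-0.76) and *Oat* (-0.67) were also called lower in Sol and *Atp13a3* higher (0.76, adjusted p 0.0431). The call of *Atp13a3* held in 13 of 24 alternatives only: it was lost with the ribosomal protein covariate (0.39, adjusted p 0.277), with no filter on low counts (0.0571), and without any one of LSD1-mKO Gas 1, 3, 4 or 5, WT Sol 3 or LSD1-mKO Sol 1, 2, 3 or 4 (0.0542 to 0.142). In all, 3 of the 17 genes were called in WT, where 17.0% of all genes were, and 6 in LSD1-mKO, where 24.5% were.

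Genes known to control *Odc1*, *Amd1* or *Smox*, or to report on the glucocorticoid, were given by group only. *Myc*, an activator of *Odc1*, had 11.6 ± 2.77 CPM in WT Gas (SD, n = 3), 15.3 ± 6.15 in LSD1-mKO Gas (SD, n = 5), 9.38 ± 1.43 in WT Sol and 12.5 ± 7.74 in LSD1-mKO Sol. The glucocorticoid receptor gene *Nr3c1* had 126 ± 12.0, 114 ± 31.7, 94.6 ± 19.5 and 86.8 ± 18.3 CPM in the same order, and its target *Fkbp5* had 440 ± 74.9, 407 ± 56.0, 293 ± 39.4 and 257 ± 18.3 CPM. *Cdkn1a* had 244 ± 67.7, 264 ± 81.0, 379 ± 105 and 251 ± 56.2 CPM. The libraries of the genotypes overlapped for each of these genes in Gas and in Sol.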

How the data were processed

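Poly(A) RNA of Gas and Sol was sequenced with 75-base single-end reads. Per the labels and the file headers, the authors aligned the reads with STAR to mm10 and counted exon reads per gene with featureCounts 1.5.2 on the iGenomes UCSC annotation. The deposited values are raw read counts for 24421 genes, with reads of several places or genes left out and no strand setting. The authors' tables of their own comparisons (log2 fold change, mean log2 CPM, p-value, adjusted p-value from edgeR) were not used. All 16 count columns were mapped to samples and 0 belonged to others.

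Counts were tested with edgeR 4.0.16 (R 4.3.3, limma 3.58.1; filterByExpr with a minimum count of 10, TMM scaling, two-sided quasi-likelihood F-test), each muscle apart for genotype and all 16 libraries together for the interaction and for Sol against Gas. P-values were adjusted by Benjamini-Hochberg over all genes tested and genes under 0.05 were called. The alternatives were RLE scaling, no filter, DESeq2 1.42.0, robust fits, the exact test, a ribosomal protein covariate, another choice of libraries in the fit, a replicate block, and each library left out. The scripts were tested on simulated data. CPM and RPKM use TMM-scaled library sizes over all 16 libraries. Coordinates, exon lengths and transcripts are those of GENCODE M21 (GRCm38), which can differ from the authors' annotation, and promoters are those of RefSeq (GRCm38.p6). The table held 8 of the 10 members.

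Replicate numbers of the titles paired Gas and Sol libraries in LSD1-mKO, where the correlations of deviations from the group means were 0.212 to 0.359 in all 5 pairs, and not in WT (-0.515 to 0.123) or between genotypes (-0.160 to 0.307). The members and lists were chosen with earlier results of these data known. The rule named all 10 members, *Kdm1a*, the genes of the wider list that were called between genotypes, up to 6 called between muscles, the 3 profiles most like *Odc1* and *Smox*, and 5 regulators, of which 1 is not reported here. The depth was 10130415 to 24576377 reads per library, and limits from counts of 0 cover counting error only.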

Additional observations from a re-analysis of the deposited data

Results flagged for a closer look

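The genotype differences of *Odc1* had opposite signs in the muscles, and neither was called. Each of the 5 LSD1-mKO Gas libraries lay below the WT Gas mean (428 CPM) and each of the 5 LSD1-mKO Sol libraries above the WT Sol mean (76.0 CPM), though LSD1-mKO Sol 3 (79.9 CPM) lay inside the WT range. The difference between the log2 fold changes was 1.48 (SE 0.408, p 0.00202), and with an edgeR quasi-likelihood adjusted p of 0.646 it was not called. Over the 23 alternatives it ranged from 1.28 to 1.68, with adjusted p from 0.137 to 1.00.

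*Azin1* had 1 library far from the rest of its group: LSD1-mKO Gas 2 had 51.2 CPM, and its gap to the next library held 0.746 of the range of the 5 libraries, over the limit of 0.71. Of 16 groups of 5 libraries examined this was 1, and chance gives about 1 in 20.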

How the results depend on the processing

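Members called between genotypes stayed at 0 in Sol and for the interaction under all alternatives. In Gas 1 member (*Smox*) was called by DESeq2, by the exact test, in the fit of all 16 libraries and without the libraries of high ribosomal protein level, and 0 to 1 with a library left out. In WT 3 members (*Smox*, *Odc1*, *Sms*) were called between muscles with only that genotype's libraries in the fit (7.81% of all genes), against 5 (17.0%), and 4 to 5 with a library left out. In LSD1-mKO 5 to 6 were called, the sixth being *Srm* (DESeq2, and 4 fits without a library) or *Sat1* (the covariate). The causes were not tested.

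Member log2 fold changes that were not called changed sign as follows. In Gas, the ribosomal protein covariate gave 0.0432 for *Sms* and 0.0748 for *Sat1*, and leaving out the libraries of high ribosomal protein level gave 0.0142 for *Sms*, 0.18 for *Sat1* and -0.0586 for *Oaz2*. With a library left out, Gas values ranged from -0.34 to 0.0708 for *Sms*, from -0.59 to 0.14 for *Sat1*, from -0.0345 to 0.10 for *Oaz2* and from -0.0630 to 0.19 for *Azin1*. In Sol, the replicate block gave -0.14 for *Sms* and -0.0602 for *Oaz2*, and leaving out WT Sol 2, the Sol library of high ribosomal protein level, gave 0.0246 for *Smox* and -0.11 for *Azin1*. With a library left out, Sol values ranged from -0.0847 to 0.16 for *Srm*, from -0.0793 to 0.13 for *Sms*, from -0.33 to 0.0246 for *Smox*, from -0.00401 to 0.11 for *Oaz2* and from -0.11 to 0.68 for *Azin1*. For the interaction, *Oaz2* had 0.0151 with the covariate and 0.12 without the libraries of high ribosomal protein level, where *Azin1* had -0.31. With a library left out it ranged from -0.0309 to 0.37 for *Sms*, from -0.0621 to 0.0796 for *Oaz2* and from -0.19 to 0.59 for *Azin1*. From Gas to Sol in WT, the covariate gave 0.0989 for *Srm*, 0.44 for *Sat1* and 0.38 for *Oaz1*, and leaving out the libraries of high ribosomal protein level gave 0.0317 for *Srm* and 0.0413 for *Sat1*. With a library left out, *Srm* ranged from -0.36 to 0.0120 and *Sat1* from -0.52 to 0.17.

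The replicate numbers do not pair the genotypes. The block moved the genes called from 4 to 3 in Gas, from 129 to 412 in Sol and from 0 to 1 for the interaction, with 0 members called in each, and *Kdm1a* in Gas was not called (adjusted p 0.226). Between muscles it called 4 members in WT, without *Azin1* (adjusted p 0.0815), and 5 in LSD1-mKO, where every one of the 5 Gas libraries correlated best with its own number, against 0 of 3 in WT. All genes called in Gas rose from 4 to 132 with DESeq2, 103 with the exact test and 62 in the fit of all 16 libraries, in Sol they went from 129 to 605, 558 and 108, and for the interaction from 0 to 21 with DESeq2. With a library left out they ranged from 1 to 7 in Gas, from 11 to 228 in Sol and from 1132 (without WT Sol 1) to 2839 from Gas to Sol in WT. From Gas to Sol in WT they fell from 2337 to 1011 with that genotype's libraries alone. With the longest transcript as the length, 23 of 32 RPKM values moved by more than 1 SD.

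Summing *Amd1* and *Amd2* gave no value, as both had 0 reads, and levels over unique windows of the genome were not run, as no genome was used here. *Oaz1* had at most 25 reads in a library, and the cause was not tested.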
